A study of Mus musculus with 6 samples.

Results

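The chaperones of the cytosol and the mitochondria were examined in mouse small intestine after ischemia/reperfusion (I/R), with sham surgery as the control. The members were taken by gene symbol and not by a measured value: the Hspa, Hspb, Hspd, Hspe, Hsph, Hsp90a, Dnaja, Dnajb and Dnajc symbols, the listed subunits of the chaperonin TRiC (Cct2 to Cct8 and Tcp1), the Bag genes, Stip1 and Hsf1. Chaperones of the ER lumen such as Hspa5 were set aside by the same rule. It covers 82 protein-coding symbols of GENCODE release M21, of which 71 were listed, and all 71 passed the minimum mean of 0.5 FPKM over the 6 libraries, among 12006 genes tested. The other 11 symbols (Dnajb7, Dnajb8, Dnajb13, Dnajc5b, Dnajc5g, Dnajc6, Dnajc28, Hspa1l, Hspa12b, Hspb3 and Hspb9) and the TRiC subunit Cct6a are not analysed here. The name does not describe every member: Hspa13, Dnajb12, Dnajb14, Dnajc1 and Dnajc16 are known as proteins of the ER, Dnajc13 works on endosomes, and Hspb11 is a part of intraflagellar transport.

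RNA sequencing was done on 3 I/R libraries (replicates 6, 7 and 9) and 3 sham libraries (replicates 1, 3 and 5) of small intestine, all from C57BL/6 mice aged 8 weeks. Per the study's methods, the mice were male, the superior mesenteric artery was closed and then reopened in I/R mice, and sham mice had the operation without the occlusion. The I/R libraries form a single group, so no course over time after reopening can be read from them. The labels give no deleted gene and no drug for either group. Whether the libraries of a group come from separate animals is not given, so each p-value covers the spread between these libraries and nothing wider.

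Chaperones bind proteins that are not yet folded or have lost their fold. HSP70 proteins bind and release short stretches of a client, and J-domain proteins (the Dnaj genes) bring clients to HSP70 and start its ATPase. Exchange factors such as HSP110, most Bag proteins and Hspbp1 make HSP70 release nucleotide. Stip1 hands clients from HSP70 to HSP90, TRiC folds actin and tubulin inside a closed chamber, Hspd1 with its lid Hspe1 does the same in the mitochondrial matrix, and small heat shock proteins hold unfolded clients without ATP. In stressed cells the transcription factor HSF1 switches on many of these genes. The gut epithelium is known for inducible HSP70 and for the small heat shock protein Hspb1, which protect it against injury.

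Values are FPKM (fragments scaled to transcript length and library size), summed over the listed transcripts of a gene. A log2 fold change is I/R minus sham on log2(FPKM + 1), tested with limma across all 12006 genes, with Benjamini-Hochberg adjusted p-values and a threshold of 0.05. The depth of the libraries is unknown.

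Among the libraries, sham replicate 3 and I/R replicate 9 stood apart from the rest of their groups, and both touch the chaperones. Other libraries stood apart in other marker sums, as given below. Sham replicate 3 held the lowest of the 6 values in 34 of the 71 members and in 15 of 15 cell cycle genes, a list added after the values were seen. The cell cycle genes summed to 244, 252 and 268 FPKM in I/R libraries 6, 7 and 9, against 192, 104 and 204 FPKM in sham libraries 1, 3 and 5. The part of the cell cycle genes in the results below was not tested. I/R replicate 9 held the lowest value of all 9 listed smooth muscle markers, which summed to 845, 792 and 30.9 FPKM in the I/R libraries, against 629, 267 and 132 FPKM in the sham libraries. It also held the lowest value of all 4 adipocyte markers. Enterocyte markers, which define the labelled tissue, summed to between 9198 and 13810 FPKM in I/R and between 9950 and 19579 FPKM in sham. The 19579 FPKM was that of sham replicate 3, against 9950 and 13835 FPKM in sham replicates 1 and 5. In such bulk tissue, fewer cells of a type and less RNA per cell cannot be told apart. Neutrophil markers summed to 7.07 to 39.0 FPKM in I/R and to 0.992 to 4.22 FPKM in sham, so those sums did not overlap, and their part in the chaperone values was not tested. The ranges of the leukocyte, red cell, endothelial and enteric neuron markers overlapped between the groups. In sham replicate 1, leukocyte markers summed to 104 FPKM and endothelial markers to 17.8 FPKM. Sham replicates 3 and 5 had 17.8 and 27.5 FPKM of leukocyte markers and 4.24 and 2.38 FPKM of endothelial markers. In I/R replicate 6, neutrophil markers summed to 39.0 FPKM and red cell markers to 185 FPKM. I/R replicates 7 and 9 had 7.07 and 10.9 FPKM of neutrophil markers and 85.7 and 62.9 FPKM of red cell markers. Their part was not tested either.

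No chaperone passed the adjusted threshold in limma, in either direction, and the lowest adjusted p was 0.471 (Hsp90aa1). Over all genes tested, 0.0167% passed higher in I/R and 0.0167% lower. At an unadjusted p below 0.05, 10 of the 71 chaperones were higher in I/R, against 5.56% of all genes, and 1 was lower, against 3.38%. The 10 were Hsp90aa1, Hsph1, Dnajc2, Cct3, Cct7, Bag2, Cct8, Hspa4, Hspbp1 and Hspa9, and the 1 was Bag4. Each I/R value lay above each sham value for 18 members, against 10.6% of all genes, and below for 1 member, against 5.89%. A mean log2 fold change above 0 was found for 54 of the 71, against 62.6% of all genes. The median over the members was 0.32, beside 0.12 over all genes.

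Part of that height belonged to all genes. Median-ratio scaling of the libraries brought the median of all genes to 0.01 and that of the chaperones to 0.19, so the members stood 0.19 above all genes with the scaling and 0.20 above them without it. This gap was 0.11 without I/R replicate 7 and 0.24 without sham replicate 5, the ends of its range when 1 library was left out. With that scaling, 5 chaperones were higher at an unadjusted p below 0.05 (3.81% of all genes) and 2 were lower (5.10% of all genes). Without sham replicate 3, 5 were higher (3.36% of all genes), 2 were lower (2.69% of all genes), and the member median was 0.22. Hsp90aa1, Hsph1 and Bag4 were the 3 members that stayed below 0.05 in each of the other settings that tested them.

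**Figure D1:**
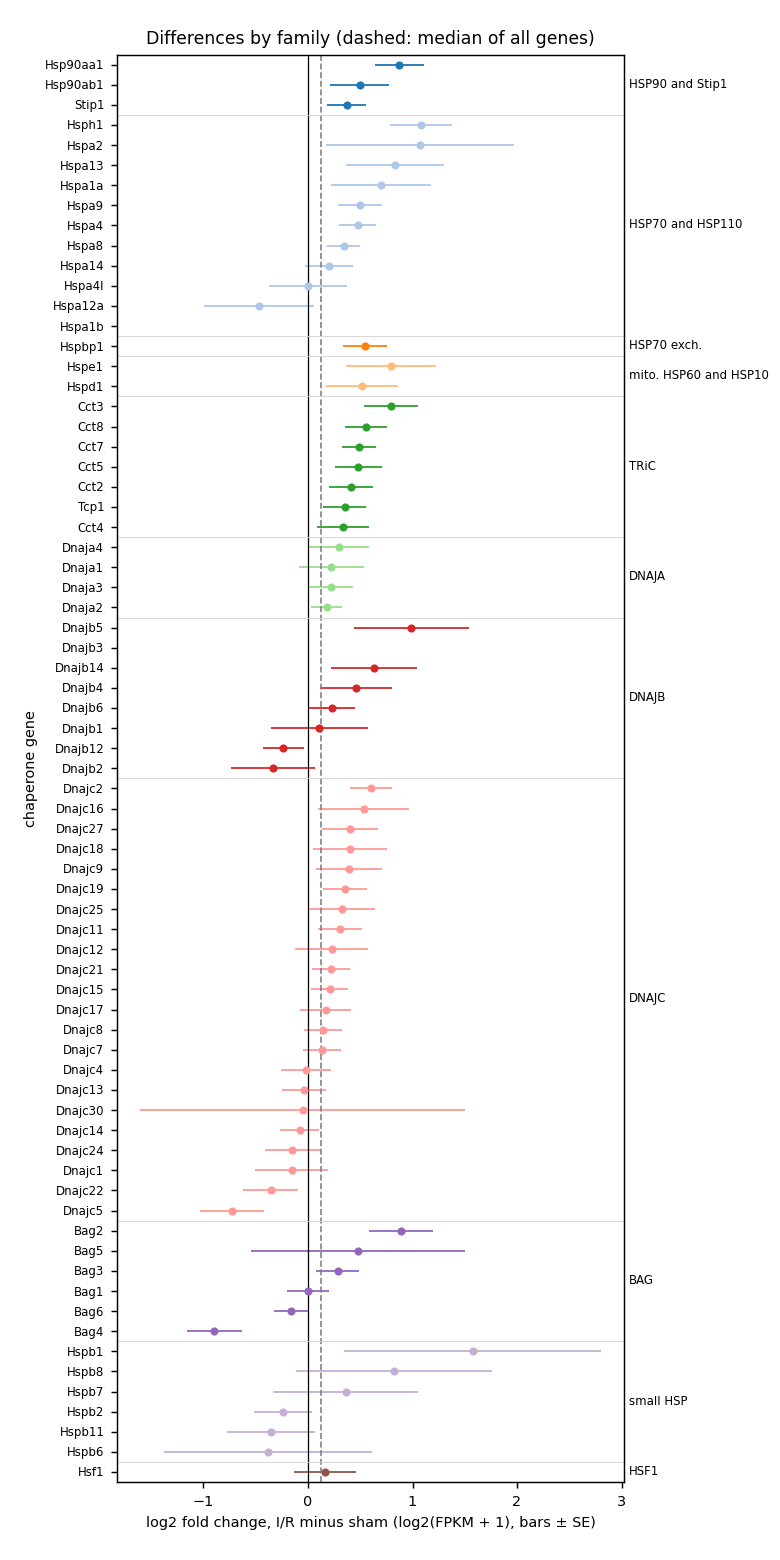
Log2 fold change of 69 of the 71 chaperones, I/R minus sham, on log2(FPKM + 1), grouped by family, with bars of 1 SE (3 libraries a group). The dashed line is the median of all genes tested, 0.12. All 7 TRiC subunits lie to the right of it, and Bag4 lies farthest to the left. Hspa1b and Dnajb3, listed at 0 in a whole group, have no point.

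**Figure D2:**
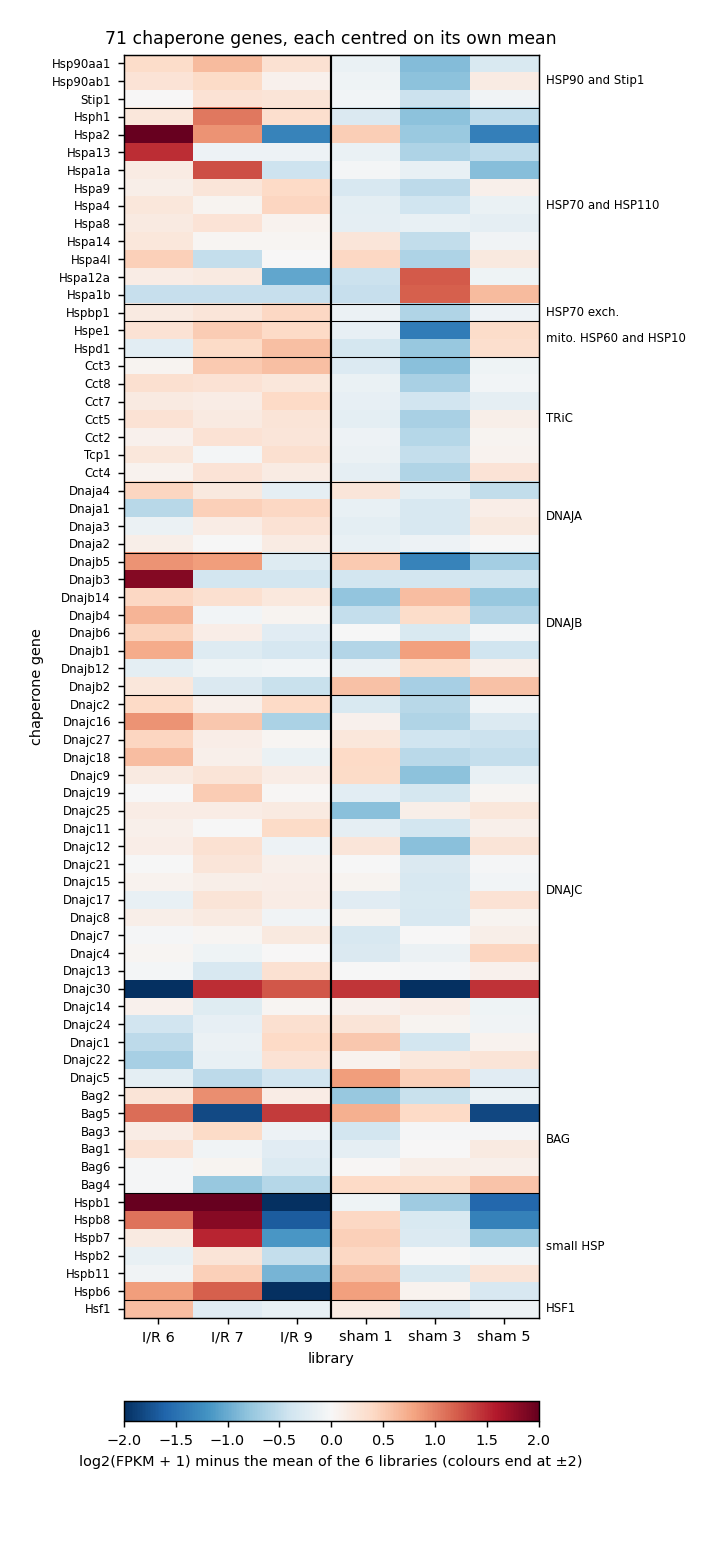
Level of each chaperone in each library, as log2(FPKM + 1) minus the gene's mean over the 6 libraries, with I/R libraries left of the line and sham libraries right of it. Red is above the mean and blue below. The sham replicate 3 column is blue through the HSP90, mitochondrial and TRiC rows, and the I/R replicate 9 column is blue through the small HSP rows.

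Hsf1, the heat shock transcription factor itself, had 8.57, 4.33 and 4.60 FPKM in the I/R libraries, against 6.00, 4.01 and 4.79 FPKM in the sham libraries. The groups overlapped, with I/R replicate 6 the highest of all 6, and the log2 fold change was 0.16 ± 0.30 (limma adjusted p = 0.862). HSF1 binds inverted repeats of the letters GAA. A list of 14 members known to be HSF1-inducible, drawn up with earlier results of these data known, had a median log2 fold change of 0.49. Of the 14, 13 had a log2 fold change above 0 (62.6% of all genes), Hspa4l among them at 0.00. The 1 below 0 was Hspa1b, whose values are uncertain, as described below. Hspb1 and Hspb8, also in the list, had values that depended on single I/R libraries. The other 57 members had a median of 0.30, with 41 of the 57 above 0. In the inducible list 3 members lay wholly above sham, and of the other members 15 lay above and 1 below, against 10.6% of all genes above and 5.89% below.

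RefSeq promoter windows (GRCm38.p6, from 250 bases before to 50 after a start) were matched for 55 of the 71 members. The long pattern, GAA, any 2 letters, TTC, any 2 letters, GAA, searched on both strands, was in 4 of the 55 members' windows (7.27%), against 0.662% of 27025 genes. The shorter pattern GAANNTTC was in 14 of the 55 (25.5%), against 9.04% of genes, and TTCNNGAA in 6 of the 55 (10.9%), against 9.60%. Both short patterns lie inside the long one, so these counts share windows. The long matches of Hspd1 and Hspe1 are the same bases, counted once for each gene. For GAANNTTC, the nearly identical stretches of Hspa1a and Hspa1b are likewise counted once each. Of the HSF1-inducible list, Hsp90aa1, Dnajb1, Stip1 and Hspa4l had no match to any of these patterns or had no window. A match describes letters and no binding was measured. The windows of the 4 genes with the long pattern, Hspd1, Hspe1, Dnajb6 and Hsph1, and those of the stress-inducible Hspb1, Hspa1a and Hspa1b are shown because their messages are described next. Capitals mark the pattern. Hspd1 and Hspe1 lie head to head and share the 215 bases between their RefSeq starts (chr1:55087933-55088147, read on the plus strand toward Hspe1), where 2 matches overlap and end 71 bases before the Hspe1 start.
Hspd1 and Hspe1: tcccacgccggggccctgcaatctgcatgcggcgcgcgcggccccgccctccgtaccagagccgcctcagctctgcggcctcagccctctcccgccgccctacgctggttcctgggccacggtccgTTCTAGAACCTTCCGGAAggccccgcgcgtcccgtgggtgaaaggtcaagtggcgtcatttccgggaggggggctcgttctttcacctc
The 120 bases before the Dnajb6 start (chr5:29735778-29735897, plus strand) hold 1 match.
Dnajb6: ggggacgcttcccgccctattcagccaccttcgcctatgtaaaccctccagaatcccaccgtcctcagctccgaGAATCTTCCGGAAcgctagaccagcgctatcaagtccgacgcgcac
The Hsph1 match lies after the start (chr5:149636279-149636308, minus strand).
Hsph1: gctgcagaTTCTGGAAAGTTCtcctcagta
In the 130 bases before the Hspb1 start (chr5:135887789-135887918, plus strand), capitals mark 2 matches to GAANNTTC.
Hspb1: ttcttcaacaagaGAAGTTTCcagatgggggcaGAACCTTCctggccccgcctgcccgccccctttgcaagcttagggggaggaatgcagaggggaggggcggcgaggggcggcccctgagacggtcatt
The same length before Hspa1a (chr17:34972157-34972286, minus strand) and Hspa1b (chr17:34959239-34959368, minus strand) holds 1 match to GAANNTTC each, and the pair is identical at 129 of 130 positions.
Hspa1a: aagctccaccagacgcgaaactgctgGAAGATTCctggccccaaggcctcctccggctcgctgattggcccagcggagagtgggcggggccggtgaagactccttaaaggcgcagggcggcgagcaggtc
Hspa1b: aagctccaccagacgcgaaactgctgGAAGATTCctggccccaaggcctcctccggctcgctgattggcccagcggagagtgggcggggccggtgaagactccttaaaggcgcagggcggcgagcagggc

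The classical inducible HSP70 messages were low in every library. Hspa1a, which makes the stress-inducible HSP70, had 1.90, 5.33 and 0.932 FPKM in the I/R libraries, against 1.50, 1.32 and 0.434 FPKM in the sham libraries. I/R replicate 7 was the highest, I/R replicate 9 lay below 2 of the sham libraries, and the log2 fold change was 0.70 ± 0.48 (limma adjusted p = 0.663). It was 1.08 when I/R replicate 9 was left out, 0.45 when sham replicate 5 was, and 0.22 when I/R replicate 7 was. Its twin Hspa1b stood at 0, 0 and 0 FPKM in the I/R libraries, against 0, 2.12 and 1.12 FPKM in the sham libraries. The pair is hard to tell apart by reads: of the 100-base windows of the Hspa1a transcript, 47.1% also occur in Hspa1b, and of those of Hspa1b 49.9% occur in Hspa1a. Each also has 1 exon, so their values are uncertain. No fold is given for Hspa1b, but it enters the counts and medians over the members.

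Hsph1, an HSP110 protein that drives nucleotide exchange on HSP70 and carries the pattern shown above, had the largest log2 fold change among the members whose groups did not overlap. It stood at 6.51, 12.2 and 7.07 FPKM in the I/R libraries, against 4.25, 2.61 and 3.47 FPKM in the sham libraries (chr5:149614287-149636376, GENCODE M21 on mm10). The lowest I/R library was above the highest sham library, and I/R replicate 7 was the highest. Hsph1 averaged 8.59 ± 3.14 FPKM in I/R and 3.44 ± 0.821 FPKM in sham (SD, n = 3 each), or a log2 difference of 1.08 ± 0.29 (limma adjusted p = 0.476). Its 95% interval was 0.38 to 1.78.

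For Hspa8 and Hspa4, the log2 fold changes were smaller than that of Hsph1 and the levels higher. Hspa8, the main HSP70 of unstressed cells, was at 279, 299 and 259.9 FPKM in the I/R libraries, against 218, 224 and 218 FPKM in the sham libraries. The 3 sham values were close together, all I/R values lay above them, and the log2 fold change was 0.34 ± 0.16 (limma adjusted p = 0.586). With the most abundant listed transcript alone it was 0.07. Hspa4, another HSP110, had 38.5, 34.1 and 44.5 FPKM in the I/R libraries, against 28.5, 24.7 and 29.95 FPKM in the sham libraries, again without overlap, with a log2 fold change of 0.47 ± 0.18 (limma adjusted p = 0.541). Of the 11 HSP70 and HSP110 members, 9 had a log2 fold change above 0 (62.6% of all genes), with Hspa4l at 0.00 and its mean FPKM below that of sham, 5 lay wholly above sham (10.6% of all genes), and the median log2 fold change was 0.47.

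Hspa4l, the third HSP110 gene, had 3.02, 1.09 and 1.92 FPKM in I/R and 2.88, 0.897 and 2.32 FPKM in sham, and a log2 fold change of 0.00 with an interval of -0.90 to 0.90. Hspa2, an HSP70 known from testis, spread over more than the groups did, with 22.2, 9.43 and 1.22 FPKM in I/R and 6.92, 2.36 and 1.18 FPKM in sham. Its order over the libraries was led by I/R replicate 6, and the libraries with fewest smooth muscle markers, I/R replicate 9 and sham replicate 5, had its lowest values. The part of muscle in Hspa2 was not tested. Hspa13, with 8.65, 2.23 and 2.23 FPKM in I/R and 2.19, 1.28 and 1.45 FPKM in sham, was far higher in I/R replicate 6 than in any other library, and the other I/R values lay just above the highest sham value (log2 fold change 0.83 ± 0.47). Hspa14, which works at the ribosome, and Hspa12a overlapped, with log2 fold changes of 0.20 and -0.47. These 5 genes were picked for description after their values were seen. Hspbp1, an exchange factor caught by the symbol rule although it is no HSP70, had 11.5, 12.04 and 13.6 FPKM in the I/R libraries, against 9.18, 6.29 and 9.27 FPKM in the sham libraries. Its groups did not overlap, and the log2 fold change was 0.55 ± 0.21 (limma adjusted p = 0.543).

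The HSP90 branch differed most in its inducible form. Hsp90aa1 (chr12:110690605-110702728), the stress-inducible cytosolic HSP90, stood at 91.1, 110.0 and 86.9 FPKM in the I/R libraries, against 63.9, 37.97 and 56.96 FPKM in the sham libraries. Every I/R library was above every sham library, and sham replicate 3 was the lowest. The means were 96.03 ± 12.3 FPKM in I/R and 52.9 ± 13.4 FPKM in sham (SD, n = 3 each), with a log2 fold change of 0.87 ± 0.24 and a 95% interval of 0.31 to 1.44 (limma adjusted p = 0.471). Leaving out sham replicate 3 gave 0.65. The constitutive Hsp90ab1 had 288, 311 and 253 FPKM in the I/R libraries, against 225, 135 and 267 FPKM in the sham libraries. Sham replicate 5 exceeded I/R replicate 9, and the log2 fold change of 0.49 ± 0.28 became 0.21 without sham replicate 3.

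Stip1, the adaptor between HSP70 and HSP90, had 26.8, 33.04 and 32.3 FPKM in the I/R libraries, against 25.9, 19.6 and 25.4 FPKM in the sham libraries. Its groups did not overlap, though the lowest I/R library was within 1 FPKM of the highest sham library. The log2 fold change was 0.37 ± 0.19 (limma adjusted p = 0.601). Sham replicate 3 was the lowest library for all 3 genes of this branch.

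All 7 listed subunits of TRiC had log2 fold changes above 0 (62.6% of all genes), between 0.33 and 0.80 with a median of 0.48. Of them, 5 (Cct2, Cct3, Cct5, Cct7 and Cct8) lay wholly above sham, against 10.6% of all genes. The summed level of the 7 was 480.0, 499.7 and 524 FPKM in the I/R libraries, against 377, 279 and 434 FPKM in the sham libraries. The I/R sums lay within a narrow band, and the sham sums ranged more widely, with replicate 3 the lowest. None passed the adjusted threshold, and 3 were higher at an unadjusted p below 0.05, against 5.56% of all genes.

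Cct3 had the largest log2 fold change of the subunits, with 47.4, 65.97 and 69.7 FPKM in the I/R libraries, against 37.4, 24.99 and 42.98 FPKM in the sham libraries. The difference was 0.80 ± 0.26 on the log2 scale (limma adjusted p = 0.517), and the lowest I/R library lay above the highest sham library. Cct7 had 60.3, 58.7 and 69.8 FPKM in the I/R libraries, against 46.9, 40.3 and 46.6 FPKM in the sham libraries, with sham libraries close together and a log2 fold change of 0.49 ± 0.16 (limma adjusted p = 0.517). Cct8 was tight in I/R and spread in sham, with 65.8, 64.1 and 61.04 FPKM in the I/R libraries, against 47.7, 33.02 and 50.04 FPKM in the sham libraries. Its log2 fold change was 0.56 ± 0.20 (limma adjusted p = 0.533). Cct2, the most abundant subunit on the FPKM scale, had 94.8, 109.7 and 107 FPKM in the I/R libraries, against 83.4, 60.1 and 93.7 FPKM in the sham libraries. Its lowest I/R value and its highest sham value nearly touched, and the log2 fold change was 0.41 ± 0.21 (limma adjusted p = 0.603).

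Tcp1 and Cct4 overlapped through sham replicate 5, with log2 fold changes of 0.35 and 0.33. Sham replicate 3 had the lowest value of all 7 subunits. Without it all 7 means were still higher in I/R (56.0% of all genes), but the median log2 fold change was 0.28. There 1 subunit, Cct7, had an unadjusted p below 0.05 (3.36% of all genes). With median-ratio scaling the 7 were also all higher (50.9% of all genes), at 0.19 to 0.65. In that setting 1 subunit, Cct3, was below 0.05 (3.81% of all genes). The part of the cell cycle genes, which were lowest in the same library, was not tested.

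**Figure D3:**
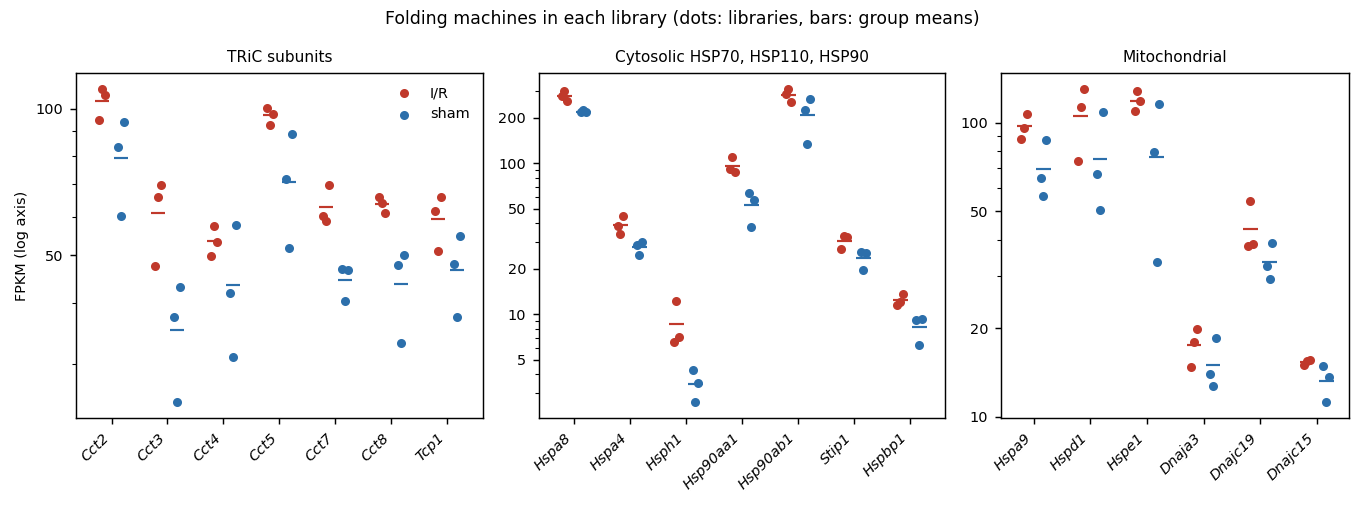
FPKM of TRiC subunits, cytosolic HSP70, HSP110 and HSP90 genes and mitochondrial chaperones, on log axes. Dots are libraries (I/R left, sham right) and bars are group means. The Cct3, Cct7 and Cct8 dots of the groups do not overlap, while for Hspe1 and Hspd1 a sham library reaches into the I/R range.

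The mitochondrial chaperones had higher means in I/R with wide sham groups. Hspa9, the mitochondrial HSP70 that pulls proteins into the matrix, had 88.4, 96.3 and 107 FPKM in the I/R libraries, against 64.9, 56.3 and 87.1 FPKM in the sham libraries. The groups were separated by little more than 1 FPKM, and the log2 fold change was 0.50 ± 0.21 (limma adjusted p = 0.557). Hspd1, the mitochondrial HSP60, had 74.1, 113 and 130.4 FPKM in the I/R libraries, against 67.1, 50.4 and 109 FPKM in the sham libraries. Sham replicate 5 was above I/R replicate 6, and the log2 fold change was 0.52 ± 0.34 (limma adjusted p = 0.657).

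Hspe1, the lid of the Hspd1 chamber, had 109.8, 129 and 118 FPKM in the I/R libraries, against 79.7, 33.6 and 116 FPKM in the sham libraries. Sham replicate 5 lay inside the I/R range, sham replicate 3 far below it, and the difference on the log2 scale was 0.80 ± 0.43 (limma adjusted p = 0.624). Without sham replicate 3 the log2 fold changes were 0.30 for Hspe1 and 0.27 for Hspd1. Over the settings that left out a library they ran from 0.25 to 1.18 for Hspe1 and from 0.22 to 0.81 for Hspd1. Both lower ends came from median-ratio scaling without sham replicate 3. Hspd1 and Hspe1, which share the promoter stretch printed above, were both lowest in sham replicate 3 and both at their sham maximum in replicate 5.

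J-domain proteins, the largest group, were mixed. All 4 DNAJA genes had log2 fold changes above 0 (62.6% of all genes), between 0.18 and 0.30. Dnaja1, a main partner of cytosolic HSP70, had 30.1, 62.7 and 59.4 FPKM in the I/R libraries, against 39.9, 35.6 and 49.00 FPKM in the sham libraries. I/R replicate 6 was the lowest of all 6 libraries and the other I/R libraries the highest. Dnaja2 had 29.3, 26.8 and 30.2 FPKM in the I/R libraries, against 24.2, 25.02 and 26.7 FPKM in the sham libraries, a small gap without overlap and a log2 fold change of 0.18 ± 0.15 (limma adjusted p = 0.698). The mitochondrial Dnaja3 overlapped, with 14.8, 17.9 and 19.9 FPKM in I/R and 13.9, 12.7 and 18.5 FPKM in sham, and so did Dnaja4, with 1.80, 1.39 and 0.844 FPKM in I/R and 1.47, 0.814 and 0.480 FPKM in sham. None of the 4 had an unadjusted p below 0.05, against 5.56% of all genes higher and 3.38% lower.

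None of the 8 DNAJB genes was separated between groups, against 10.6% of all genes above and 5.89% below. Dnajb1, the HSP40 that HSF1 induces with HSP70, had 23.00, 11.04 and 10.4 FPKM in the I/R libraries, against 8.52, 24.2 and 9.90 FPKM in the sham libraries. A sham library was the highest and the other libraries apart from I/R replicate 6 lay near 10 FPKM. The log2 fold change was 0.11 ± 0.46 (limma adjusted p = 0.944), and -0.03 with median-ratio scaling. Dnajb6, which keeps aggregation-prone proteins soluble and whose promoter is shown above, had 31.8, 25.6 and 19.6 FPKM in I/R and 23.04, 18.5 and 22.7 FPKM in sham, also with overlap.

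Dnajb4, Dnajb5 and Dnajb14 had the smallest p-values of this group, none under 0.05. Dnajb4 had 8.20, 4.50 and 4.97 FPKM in I/R and 3.13, 6.39 and 2.79 FPKM in sham, and the single sham library above the lowest I/R library was replicate 3. Dnajb14 likewise had its high sham value in replicate 3, with 2.82, 2.58 and 2.30 FPKM in I/R and 0.651, 3.37 and 0.688 FPKM in sham. The log2 fold change of Dnajb4 was 0.46 ± 0.35, and ran from 0.23 without I/R replicate 6 to 0.76 without sham replicate 3 when 1 library was left out. That of Dnajb14 was 0.63 ± 0.41, and ran from 0.39 without sham replicate 1 to 1.09 without sham replicate 3. Without sham replicate 3, but with no other single library left out, both had an unadjusted p below 0.05. Dnajb5 was listed at 0 in sham replicate 3, with 3.68, 3.51 and 1.11 FPKM in I/R and 2.61, 0 and 0.575 FPKM in sham. Dnajb2 and Dnajb12 were lower in mean after I/R, with log2 fold changes of -0.34 and -0.24.

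Of the 22 DNAJC genes, 14 had a log2 fold change above 0, against 62.6% of all genes, and 3 (Dnajc2, Dnajc15 and Dnajc21) lay wholly above sham, against 10.6%. Both shares were near those of all genes, and the median log2 fold change was 0.19, beside 0.12 over all genes. The log2 fold changes ran from -0.73 to 0.60. Dnajc2, which works at the ribosome on nascent chains, had 29.8, 24.02 and 29.5 FPKM in the I/R libraries, against 17.9, 14.9 and 21.3 FPKM in the sham libraries. It was the single DNAJC gene of the 22 with an unadjusted p below 0.05, against 5.56% of all genes higher and 3.38% lower. Its log2 fold change was 0.60 ± 0.20 (limma adjusted p = 0.517). Dnajc19, a part of the mitochondrial import motor, had 38.1, 54.1 and 38.6 FPKM in I/R and 32.5, 29.4 and 38.9 FPKM in sham, with overlap. The most abundant DNAJC gene, Dnajc7, a cytosolic co-chaperone of HSP70 and HSP90, had 57.2, 59.7 and 66.5 FPKM in I/R and 46.5, 58.3 and 63.1 FPKM in sham, with a log2 fold change of 0.13 and -0.01 after median-ratio scaling.

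Dnajc5, the cysteine string protein known from secretory vesicles, had the lowest log2 fold change of the J-domain genes. It stood at 6.36, 4.82 and 5.46 FPKM in the I/R libraries, against 13.97, 10.7 and 6.15 FPKM in the sham libraries. Means were 5.55 ± 0.773 FPKM in I/R and 10.3 ± 3.93 FPKM in sham (SD, n = 3 each), sham replicate 5 reached the I/R range, and the log2 fold change was -0.73 ± 0.31 (limma adjusted p = 0.562). With median-ratio scaling it was -0.85, and it ran from -0.49 without sham replicate 1 to -1.02 without sham replicate 5. The unadjusted p was below 0.05 in 4 of the 16 other settings.

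The BAG genes, most of them known as exchange factors of HSP70 with different partners, lay on both sides of 0. Of the group, 4 were above it (62.6% of all genes) and 2 below. Bag1 counted among the 4 at 0.00. Bag4 (chr8:25764538-25785287), known as a silencer of death receptor signalling, was the 1 of the 71 members with every I/R value below every sham value (5.89% of all genes). It had 1.48, 0.499 and 0.705 FPKM in the I/R libraries, against 2.33, 2.26 and 2.76 FPKM in the sham libraries. The gene is of low level, I/R replicate 6 was the highest of its group, and the means were 0.895 ± 0.518 FPKM in I/R and 2.45 ± 0.269 FPKM in sham (SD, n = 3 each). This gave a log2 fold change of -0.89 ± 0.26, with a 95% interval of -1.52 to -0.27 (limma adjusted p = 0.484).

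Bag2, which holds back the ubiquitin ligase Stub1, was on the other side, with 2.16, 4.03 and 1.95 FPKM in the I/R libraries, against 0.568, 0.950 and 1.42 FPKM in the sham libraries. The groups did not overlap, and the log2 fold change was 0.89 ± 0.30 (limma adjusted p = 0.533). Bag3, the HSF1-inducible member that sends clients to autophagy, had 18.6, 22.1 and 15.4 FPKM in I/R and 12.7, 16.3 and 16.3 FPKM in sham. I/R replicate 9 lay below 2 of the sham libraries, and the log2 fold change was 0.28 ± 0.21. Bag1, the most abundant member of the group, had 109, 84.9 and 75.8 FPKM in I/R and 78.1, 88.99 and 101 FPKM in sham, with a log2 fold change of 0.00 and an interval of -0.48 to 0.48. Bag6 averaged 38.97 ± 4.52 FPKM in I/R and 43.5 ± 1.53 FPKM in sham, with overlap.

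The values of all 6 members grouped as small heat shock proteins, Hspb11 among them, overlapped between the groups. Over all genes, 10.6% lay wholly above sham and 5.89% below. Hspb1, a small heat shock protein known from the gut, had 59.2, 63.8 and 1.73 FPKM in the I/R libraries, against 11.03, 6.79 and 3.31 FPKM in the sham libraries. I/R replicates 6 and 7 were far above every sham library and I/R replicate 9 below all of them. The mean was 5.91 times that of sham, yet the log2 fold change was 1.57 ± 1.23 with an interval of -1.37 to 4.51 (limma adjusted p = 0.686). Without I/R replicate 9 it was 3.08 (limma adjusted p = 0.164, the lowest of 0.164 to 0.915 over the other settings). It was 0.85 without I/R replicate 6 and 0.79 without I/R replicate 7, so the value depended on each I/R library.

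Hspb8, the partner of Bag3, had 9.15, 15.9 and 0.501 FPKM in the I/R libraries, against 5.40, 2.89 and 0.866 FPKM in the sham libraries. It was likewise highest in I/R replicates 6 and 7 and lowest in I/R replicate 9, with a log2 fold change of 0.82 ± 0.94, 1.86 without that library and 0.12 without I/R replicate 7. The muscle-type Hspb6 had 9.95, 12.97 and 0 FPKM in I/R and 9.81, 5.42 and 3.88 FPKM in sham. Hspb7 had 2.08, 6.77 and 0.210 FPKM in I/R and 2.76, 1.24 and 0.629 FPKM in sham. Hspb2, likewise a muscle type, had 0.350, 0.788 and 0.0736 FPKM in I/R and 0.987, 0.488 and 0.433 FPKM in sham. I/R replicate 7 was highest for Hspb6 and Hspb7, and sham replicate 1 for Hspb2. Hspb11, the intraflagellar transport protein, had 5.02, 7.84 and 2.34 FPKM in I/R and 8.55, 4.14 and 6.56 FPKM in sham, with a log2 fold change of -0.35, and -0.68 to 0.02 when 1 library was left out. Hspb2, Hspb6 and Hspb7 were added to the description after their values were seen.

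All 6 members of the small heat shock group, Hspb11 included, had their lowest value in I/R replicate 9. In that library all 9 smooth muscle markers were lowest. Acta2, a smooth muscle actin, had 202, 197 and 6.26 FPKM in the I/R libraries, against 154, 48.7 and 36.2 FPKM in the sham libraries. In sham, Hspb1, Hspb2, Hspb6, Hspb7 and Hspb8 and the muscle sum all stood highest in replicate 1 and lowest in replicate 5. The part of muscle content in these values was not tested. The muscle sums were 845, 792 and 30.9 FPKM in the I/R libraries and 629 FPKM in sham replicate 1. Without the small heat shock group, 51 of 65 members had a log2 fold change above 0 (62.6% of all genes), and the median stayed at 0.32.

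**Figure D4:**
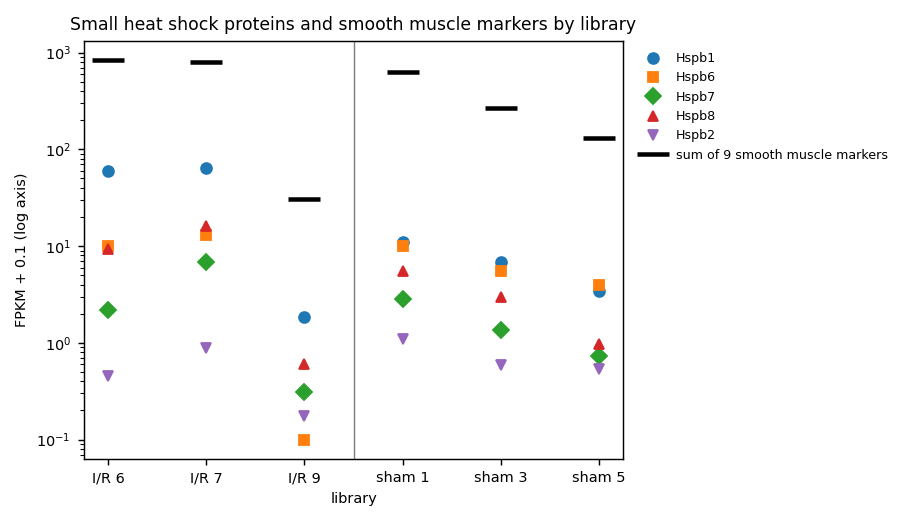
FPKM + 0.1 of Hspb1, Hspb2, Hspb6, Hspb7 and Hspb8 in each library, on a log axis, with the summed FPKM of 9 smooth muscle markers as black bars; I/R libraries stand left of the line and sham libraries right of it. All are lowest in I/R replicate 9, where the muscle sum is 30.9, and Hspb1 is highest in I/R replicates 6 and 7.

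Genes that work beside these chaperones were taken from a list of co-chaperones, prefoldin, mitochondrial proteases, ubiquilins and others, of which 43 were tested. Of the 43, 34 had a log2 fold change above 0 (62.6% of all genes), and the median log2 fold change was 0.26. At an unadjusted p below 0.05, 4 were higher (5.56% of all genes) and 0 lower (3.38%). None passed the adjusted threshold (0.0167% of all genes in each direction). Each I/R value lay above each sham value for 9 of the genes (10.6% of all genes). It lay below for 2 (5.89% of all genes), Stub1, a ubiquitin ligase of chaperone clients, and Ttc4, an HSP90 co-chaperone.

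Cdc37l1, a relative of the HSP90 kinase adaptor Cdc37, had the smallest p. It stood at 11.4, 14.6 and 13.1 FPKM in the I/R libraries, against 4.91, 4.57 and 3.19 FPKM in the sham libraries. The lowest I/R library was more than 6 FPKM above the highest sham library, with a log2 fold change of 1.43 ± 0.22 (limma adjusted p = 0.173, and from 0.126 to 0.435 in the other settings). Ppid, a prolyl isomerase on HSP90, had 10.9, 11.7 and 9.33 FPKM in I/R and 6.92, 5.48 and 4.26 FPKM in sham, without overlap, and a log2 fold change of 0.84 ± 0.22 (limma adjusted p = 0.471).

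Ahsa1, the activator of the HSP90 ATPase, had 35.9, 40.9 and 42.01 FPKM in I/R and 28.6, 19.6 and 29.3 FPKM in sham, without overlap, and a log2 fold change of 0.61 ± 0.21 (limma adjusted p = 0.519). Pfdn4, a prefoldin subunit that hands clients to TRiC, had 13.2, 14.1 and 10.8 FPKM in I/R and 8.72, 7.38 and 9.38 FPKM in sham, without overlap, and a log2 fold change of 0.52 ± 0.19. Fkbp5, an HSP90 co-chaperone induced by glucocorticoids, had 40.2, 19.1 and 68.8 FPKM in I/R and 24.6, 16.7 and 7.68 FPKM in sham. Its groups overlapped, I/R replicate 9 was the highest, and the log2 fold change was 1.29 ± 0.56 (limma adjusted p = 0.563).

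Some chaperones were uneven between the libraries of a group or between their listed transcripts. Dnajc30, a gene of 1 exon, was listed at 0 in I/R replicate 6 and in sham replicate 3 and at 15.6 to 18.6 FPKM in the other 4 libraries. Bag5 was likewise low in 1 library of each group, with 8.30, 0.227 and 10.2 FPKM in I/R and 6.02, 4.60 and 0.202 FPKM in sham. Dnajb3, a gene of 1 exon known from testis, was at 3.58 FPKM in I/R replicate 6 and listed at 0 in the other 5 libraries. For Cct4, the 13-exon transcript was listed at 0 in I/R replicate 6 and sham replicate 3, while the 14-exon transcript carried the gene there. Hspa8 was split between a transcript of 2394 bases, at 264, 276 and 119.9 FPKM in I/R and 209, 208 and 174 FPKM in sham, and 1 of 2019 bases, at 10.9, 16.3 and 127 FPKM in I/R and 4.41, 3.21 and 39.0 FPKM in sham. The shift toward the shorter transcript was greatest in I/R replicate 9, where the gene's summed level was the lowest of the I/R libraries and above every sham library. These genes were also picked after their values were seen. Of the 71 members, 44 had 1 listed transcript and 27 had more.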

How the data were processed

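Stranded, random-primed libraries of total RNA from 6 samples of mouse small intestine were sequenced as paired reads, per the labels and the study's methods. Per the submitters' processing notes, the tools were cutadapt, HISAT2 2.0.4 and StringTie on mm10, with other versions not given in the sources used here. Values as deposited were FPKM per transcript, computed by the authors. The table listed 19763 transcripts, each with a group mean of at least 0.5 FPKM in I/R or sham. Listed FPKM summed to 315726 to 330814 per library, and 5.05% to 7.78% of values were 0, which can be a failed estimate. The lowest sum and the 7.78% were those of sham replicate 3. FPKM hold no counts, so no interval for depth is given.

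Identifiers were matched without version to GENCODE M21 (19702 matched, 61 kept as they were), FPKM were summed per gene (12388 genes), and the 12006 genes averaging 0.5 FPKM or more were tested on log2(FPKM + 1) with limma 3.58.1 in R 4.3.3 (lmFit, eBayes with trend, group as the sole term, 2-sided, Benjamini-Hochberg). This scale understates differences of low genes. The procedure was tested on simulated data. Sequences are from RefSeq tables of GRCm38.p6.

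The members, the lists and the tests were chosen with earlier results of these data known. Values in every library are given for 13 stress-inducible and constitutive genes, for up to 3 members per family with the smallest p and the most abundant one, and for the 5 other proteostasis genes with the smallest p. Other named genes were picked after their values were seen. Cell type markers were textbook lists. Alternatives were pseudocounts of 0.1 and 0.5, other filters, median-ratio and quantile scaling, limma without trend, the most abundant transcript of each gene, and leaving out each library. Median-ratio scaling without sham replicate 3 was added after seeing the data.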

Additional observations from a re-analysis of the deposited data

How the results depend on the processing

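No chaperone passed the adjusted threshold in limma under any of the 16 other settings, and the member median was above 0 in all 16. Of the 71 members, 50 kept the sign of their log2 fold change in every setting that tested them. Among the other 21, Hspa14 ran from -0.033 to 0.38, Hspa12a from -0.80 to 0.020 and Hspa4l from -0.34 to 0.24, and Bag5, Bag6, Dnajc1, Dnajc4, Dnajc8, Dnajc12, Dnajc13, Dnajc14, Dnajc24, Dnajc25, Dnajc30, Hspb6 and Hspb7 also changed sign. The count of members higher at an unadjusted p below 0.05 was 10 (5.56% of all genes), and 5 with median-ratio scaling (3.81%). It ranged from 4 to 14 when a library was left out: 5 without sham replicate 3 (3.36% of all genes), 5 with I/R replicate 7 left out (4.74%), 6 with I/R replicate 6 left out (3.20%), 7 without I/R replicate 9 (4.81%), 9 without sham replicate 1 (10.8% of all genes, beside 12.9% of the members) and 14 without sham replicate 5 (5.05%), with 4 for median-ratio scaling without sham replicate 3 (2.98%), a setting chosen after seeing the data. The count lower was 1 (3.38% of all genes). It was 0 with a minimum mean of 5 FPKM (4.33%), a filter that Bag4 does not pass. It was 2 with median-ratio scaling (5.10%), 2 with quantile normalization (5.56%) and 2 with the most abundant transcript (3.05%). With 1 library left out it was 1 to 2 (2.43% to 2.93%), and 2 with median-ratio scaling without sham replicate 3 (3.18%). The member median of 0.32 was 0.19 with median-ratio scaling and 0.22 to 0.36 with 1 library left out. It was 0.17 with median-ratio scaling without sham replicate 3. For the other proteostasis genes, the count higher was 4 (5.56% of all genes). It was 3 to 8 with 1 library left out (3.20% to 10.8%), the 8 without sham replicate 5 (5.05%). It was 2 with median-ratio scaling without sham replicate 3 (2.98%). Their count lower was 0 (3.38% of all genes). It was 2 with median-ratio scaling (5.10%) and 2 with quantile normalization (5.56%). With 1 library left out it was 0 to 1 (2.43% to 2.93%), and 1 with median-ratio scaling without sham replicate 3 (3.18%).

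Bag1 turned to -0.15 with median-ratio scaling, to -0.0030 with quantile normalization and to -0.00042 with its most abundant transcript, to -0.044 with median-ratio scaling without sham replicate 3, and ranged from -0.15 to 0.11 without a library. Dnajb1 was -0.033 and Dnajc7 -0.011 with median-ratio scaling. Without a library, Dnajb1 ranged from -0.24 to 0.55, Hsf1 from -0.11 to 0.32 and Hspb11 from -0.68 to 0.022. The cause of these shifts was not tested. No paired analysis was possible because the replicate numbers of I/R and sham differ. Genes listed at 0 and genes near 1 FPKM, such as Hspa1a, Hspa1b, Bag2 and Bag4, are limited most by the unknown depth.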
